A study of Saccharomyces cerevisiae with 95 samples.

Results

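The genes described here are the 89 ORFs that a co-expression module of mitochondrial ribosomal protein genes contains and that none of the 19 other modules of the same set contains, out of 6132 ORFs with values and 100 ORFs in the whole module. By annotation they comprise 30 proteins of the large and 23 of the small mitochondrial ribosomal subunit, 5 translation factors and activators, 14 proteins that assemble the respiratory complexes, 7 import proteins, chaperones and inner membrane organizers, 6 other proteins, and 4 ORFs that overlap another member on the opposite strand. The label therefore fits 53 of the 89 ORFs in the strict sense, and 5 others were classed here as mitochondrial translation factors and activators. The module was derived from co-expression by the study, and the sources used here do not say whether these arrays were part of that derivation, so the members' common behaviour is given as a description.

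Mitochondria carry their own ribosomes, built from proteins that are nearly all encoded in the nucleus, made in the cytosol and imported. In budding yeast these ribosomes make a handful of hydrophobic subunits of the respiratory chain and the ATP synthase, which must then receive copper and heme and join their nuclear-encoded partners. Yeast growing on glucose mainly ferments, whereas growth on glycerol depends on respiration and so on the products of these ribosomes.

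The 95 two-colour arrays of *Saccharomyces cerevisiae* fell into 3 experiments, each giving a log2 ratio of the sample over a reference. In the first, log-phase cells growing on glycerol were set against log-phase cells of the same strain on glucose, on 2 arrays for the wild type BY4741 and 3 for *adh1*, a BY4741 strain in which ADH1, the main fermentative alcohol dehydrogenase, was replaced by the KANMX marker. In the second, *adh1* cells from an overnight glucose culture at an O.D. of 0.4 were moved to 2% glycerol (0.5, 1, 2 and 4 h) or to fresh glucose (0.5, 2 and 4 h), with 1 array per time and the overnight culture as the reference of both. In the third, 83 arrays followed chemostats, in which dilution sets the growth rate, each against a late log batch culture in a similar medium. Of these, 40 were limited by glucose (0.02%, strain BY4741) and received 6 mM DTT, a heat shock of 5 h at 39°C (from 30°C), 0.4 M NaCl, 0.6 mM H2O2 or glucose to 0.04%. The other 43 were limited by histidine (2 mg/l; the labels give BY4741 and the study's methods another background) and received 6 mM DTT, a heat shock of 5 h at 37°C, 0.31 M NaCl, 10 µM clotrimazole (an inhibitor of ergosterol synthesis, dissolved in DMSO) or histidine to 4 mg/l. Chemostat values after the onset are given as the change from the steady state of the same course. The histidine-limited DTT course had no array before its onset and was set against the mean steady state of the other histidine-limited courses.

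Every chemostat array had a value for all 89 members, the transfer arrays for 87 to 89 and the log-phase arrays for 76 to 85, and 75 of the 89 could be tested in both log-phase strains. On the *adh1* log-phase arrays the genes that mark α cells were far below the reference: SAG1, the α-agglutinin, was at −5.26, −5.44 and −4.93, against −0.26 and −0.23 on the wild-type arrays. STE3, the a-factor receptor, was at −3.56, −3.46 and −3.45 on the *adh1* arrays and at 0.23 and 0.34 on the wild-type arrays. BY4741 itself is a MATa strain. The glycerol and glucose cultures of *adh1* thus differed in these α-cell markers, which stayed near 0 in the wild type. Genes that mark a cells were below 0 on the *adh1* arrays as well, and most of them also in the wild type. STE2 was at −2.63, −2.34 and −1.62 in *adh1* and at −2.58 and −2.56 in the wild type. AGA2 was at −2.44, −2.11 and −1.72 in *adh1* but at 0.49 and 0.13 in the wild type. The part of these markers in the strain comparisons was not tested. The ADH1 spot itself, at 5.60, 5.43 and 5.32 on *adh1* arrays, moved like the spot of its near-identical paralogue ADH2 (5.86, 5.65 and 5.27) and does not check the deletion. No label says that the arrays of a group came from separate cultures, so the p-values measure the spread between arrays, which may be technical, and the small number of arrays limits the precision.

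In *adh1* cells growing on glycerol most members were more abundant than on glucose. Of 75 members tested, 51 rose and 4 fell (limma, Benjamini-Hochberg adjusted over all genes at 0.05), where 29.1% of all genes rose and 34.0% fell, and the median over members was 0.37 against −0.04 over all genes. The median over members was 0.42, 0.39 and 0.34 on the 3 arrays, so the arrays differed little. The oxidative phosphorylation genes, the subunits that these ribosomes and assembly proteins serve, rose in 30 of 32 cases with a median of 0.81, and the cytosolic ribosomal protein genes fell in 74 and rose in 4 of 113, with a median of −0.46.

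Proteins of both ribosomal subunits took part. In the large subunit 18 of 28 rose and 2 fell, and in the small subunit 15 of 20 rose and none fell, with medians of 0.30 and 0.47. MRPL44, a large subunit protein, was at 0.86, 1.49 and 0.88 on the 3 arrays (log2 1.07 ± 0.17 SE, adjusted p = 0.00166 by limma). MRPL16, the large subunit protein related to bacterial L16, was at 1.06, 1.08 and 0.80 (0.98 ± 0.09 SE, adjusted p = 0.00015 by limma). All 3 arrays of both genes lay well above 0, about a doubling on the linear scale. PET123 and RSM24 of the small subunit rose by 0.83 and 0.82, MRP51, also of the small subunit, by 0.50, and MRP7, related to bacterial L27, by 0.42. NAM9, related to bacterial S4, was at 0.12, −0.12 and 0.04 and did not pass the test.

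The members outside the ribosome behaved in the same direction in most cases. Of the 7 import proteins, chaperones and membrane organizers 6 rose, with a median of 0.56, and PHB2, a prohibitin of the inner membrane, was at 0.98, 1.03 and 0.85 (0.95 ± 0.08 SE, adjusted p = 7.82e-05 by limma). The seventh of them, HSP10, the mitochondrial co-chaperonin, was at 0.07, −0.02 and 0.06. Of 9 assembly proteins tested 4 rose and 1 fell; COA1, an assembly factor of cytochrome c oxidase, reached 1.08, 0.92 and 0.93 (0.98 ± 0.11 SE, adjusted p = 0.000366 by limma). COX17, which carries copper to that enzyme, was at 0.51, 0.35 and 0.69, and ATP11, which assembles the F1 part of the ATP synthase, at 0.43, 0.34 and 0.42, and both rose. AIM24, an inner membrane protein, was at 1.01, 1.32 and 0.87, among the highest members on each array. Of the 5 translation factors and activators 3 rose and 1 fell: MEF1, the mitochondrial elongation factor G, rose by 0.46 and TUF1, the elongation factor Tu, by 0.27.

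The 4 members that fell in *adh1* did so by little. CYT2, which attaches heme to cytochrome c1, was at −0.56, −0.40 and −0.36 (−0.44 ± 0.08 SE, adjusted p = 0.00229 by limma). MRPL51 and MRPL7 of the large subunit fell by 0.41 and 0.28, and MBA1, the inner membrane receptor of the mitochondrial ribosome, by 0.35. Every one of these 4 was below 0 on all 3 arrays, and without the third array 2 members fell. MRPL51 overlaps the ORF YPR099C, and spots of double-stranded PCR product cannot tell such strands apart.

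In the wild type the same change of carbon source raised some members and lowered others. Of the same 75, 24 rose and 16 fell, where 27.7% of all genes rose and 33.0% fell, and the median over members was −0.01 against −0.05 over all genes. Without the second wild-type array 14 rose, and without the first 8 fell. The medians were 0.01 and 0.07 on the 2 arrays, near 0 on both. Both subunits had calls in both directions: in the small subunit 11 of 20 rose and 3 fell, with a median of 0.34, and in the large subunit 6 of 28 rose and 7 fell, with a median of −0.13. The difference between the subunits was not tested. Oxidative phosphorylation genes rose in 31 of 32 cases, with a median of 1.73, and cytosolic ribosomal protein genes fell in 103 of 113, with a median of −1.10.

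The 3 members that rose most in the wild type had larger mean ratios than any tested member in *adh1*. Single arrays overlapped, as MRPL44 reached 1.49 on 1 *adh1* array. MRPL44 was at 1.44 and 2.18 (1.81 ± 0.21 SE, adjusted p = 0.000436 by limma) and RSM24 at 1.69 and 1.54 (1.62 ± 0.10 SE, adjusted p = 4.4e-05 by limma). MRP17 of the small subunit rose by 1.11, MRP49 of the large subunit by 0.99 and MRPL16 by 0.81. Among those that fell, MRPL51 was at −0.89 and −1.21 (−1.05 ± 0.12 SE, adjusted p = 0.000338 by limma) and NAM9 at −0.78 and −0.93 (−0.85 ± 0.10 SE, adjusted p = 0.00043 by limma). MRPL49 of the large subunit fell by 0.69, MIA40, which drives import into the intermembrane space by a disulfide relay, by 0.58, and MNP1, related to bacterial L7/L12, by 0.56. Both arrays were on the same side of 0 for each of these genes. TUF1, MBA1 and ATP11 fell by 0.28, 0.29 and 0.40, MRP51 rose by 0.40 and PHB2 by 0.54, of which the calls of TUF1, MRP51 and MBA1 were lost under 6, 6 and 7 of 11 alternatives, while MEF1 (−0.19), PET123 (0.07), MRP7 (0.07), COX17 (0.31) and HSP10 (−0.19) did not pass the test.

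The response to glycerol was then compared between the strains within the same fit. Of the 75 members, 27 responded more positively in *adh1* and 3 more positively in the wild type, where 13.8% of all genes were higher and 11.8% lower in this comparison, and the median difference was 0.27 against −0.00 over all genes. Without the first or without the second *adh1* array 12 were higher and 1 lower. The arrays of the strains did not overlap for 51 members: *adh1* lay above the wild type for 43 (57.3%, against 29.7% of all genes) and below it for 8 (10.7%, against 27.6%). The median differences were 0.28 in the large subunit, with 11 of 28 called higher and none lower, and 0.15 in the small subunit, with 5 of 20 higher and 2 lower. They were 0.78 for import proteins, chaperones and membrane organizers, of which 5 of 7 were called higher. Over the oxidative phosphorylation genes the calls ran the other way, with none of 32 higher and 20 lower, and over the cytosolic ribosomal protein genes 75 of 113 were higher.

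Among the members, 21 (28.0%) rose in both strains, against 19.7% of all genes, and 8 (10.7%) rose in *adh1* and fell in the wild type, against 1.28% of all genes. The 8 were ATP11, MIA40, MNP1, MRPL22, PAM17, RDL2, RSM23 and TUF1, all of which were also called different between the strains. No member fell in *adh1* and rose in the wild type, which is near the share of all genes that did, 1.16%. MNP1 was at 0.70, 0.62 and 0.70 in *adh1* and at −0.63 and −0.49 in the wild type (difference 1.23 ± 0.12 SE, adjusted p = 0.00109 by limma). MIA40 was at 0.80, 0.28 and 0.42 against −0.81 and −0.36 (1.08 ± 0.20 SE, adjusted p = 0.0117 by limma). MRPL22, related to bacterial L22, was at 0.62, 0.49 and 0.48 against −0.44 and −0.36 (0.93 ± 0.12 SE, adjusted p = 0.00308 by limma). For these 3 genes every *adh1* array was positive and every wild-type array negative.

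MIC19, a subunit of the complex that forms the cristae junctions, was at 0.73, 0.59 and 0.66 against −0.42 and −0.04, a difference of 0.89. NAM9 differed by 0.87, ATP11 by 0.80, PET123 by 0.76, MEF1 by 0.65, TUF1 by 0.54 and PHB2 by 0.41, and all of these passed the test. The 3 members lower in *adh1* were RSM24 (difference −0.80, adjusted p = 0.0076 by limma), which rose in both strains, MRPS28, related to bacterial S15 (−0.72, adjusted p = 0.0224 by limma), and CYT2 (−0.58, adjusted p = 0.0154 by limma). MRPS28 was at −0.40, −0.08 and 0.04 in *adh1* and at 0.45 and 0.70 in the wild type. MRPL44 differed by −0.74 with overlapping arrays and an adjusted p of 0.0925 by limma, and MRPL16, MRP7, MRP51, COX17, HSP10 and MBA1 did not pass the test, with differences between −0.06 and 0.35.

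**Figure D1:**
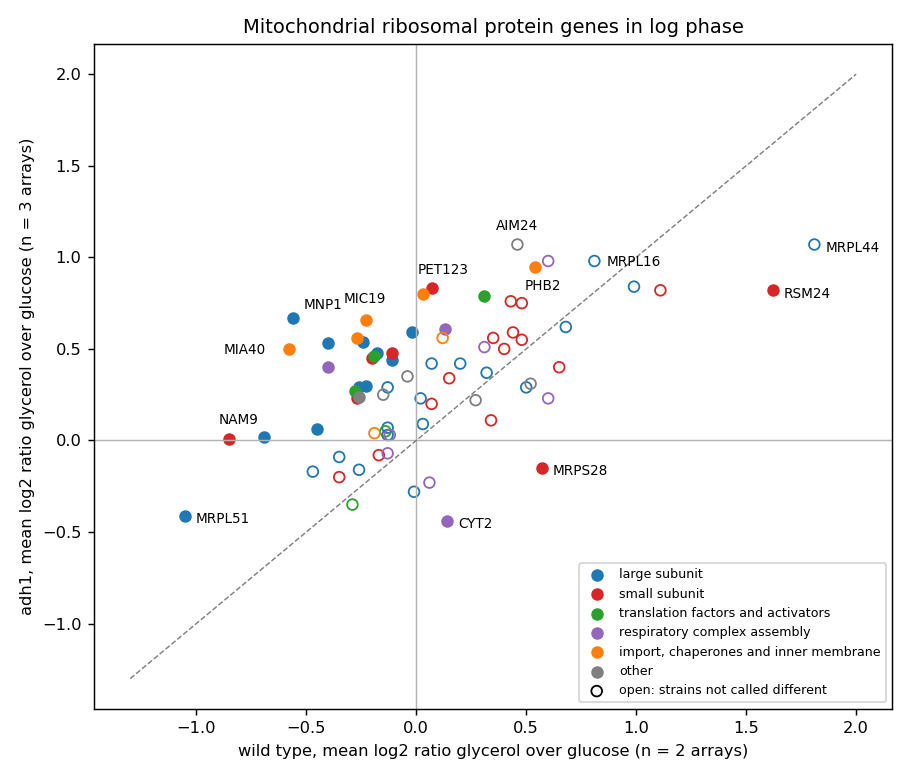
Mean log2 ratio of glycerol over glucose for each of the 75 tested members, in the wild type (x axis, 2 arrays) and in *adh1* (y axis, 3 arrays), coloured by role, with filled points for members whose response was called different between the strains. Most points lie above 0 on the y axis, and the 8 members that rose in *adh1* and fell in the wild type lie at the upper left, with MNP1 at 0.67 and −0.56.

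Known mitochondrial translation genes outside the module were compared on the same arrays. Of 16 other mitochondrial ribosomal proteins tested, 11 rose and 3 fell in *adh1*, with a median of 0.34, and 2 rose and 4 fell in the wild type, while 6 responded more positively in *adh1* and none less. Of 10 mitochondrial tRNA synthetases 3 rose and 2 fell in *adh1*, and 2 rose and 1 fell in the wild type. Of 9 other mitochondrial translation factors and activators 5 rose and none fell in *adh1*, and 3 rose and 1 fell in the wild type.

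The transfers show the first hours of the change in *adh1* and have no replicate, so their values are a description. After the move to glycerol the median over members was 0.45, 0.30, 0.07 and 0.20 at 0.5, 1, 2 and 4 h, with 68 of 87, 62, 51 and 59 members above 0. At 0.5 h 19 members were at least 2-fold higher, where 11.8% of all genes were. After the move to fresh glucose the median was 0.03, −0.01 and 0.16. Cytosolic ribosomal protein genes had medians of −1.50, −0.83, 0.23 and −0.15 after the move to glycerol and of 1.18, 1.49 and 0.89 after the move to glucose. The members' median thus stayed near 0 on glucose while that of the cytosolic ribosomal proteins was high, and the transfers share their reference culture.

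Single members differed between the transfers. TUF1 was at 1.16, 0.71, 0.65 and 1.17 on glycerol and at −0.38, 0.34 and 0.49 on glucose. PHB2 was at 1.11, 1.16, 0.43 and 0.17 on glycerol and at −0.62, −0.69 and −0.51 on glucose, on opposite sides of 0 at every time. HSP10 was high in both, at 1.12, 1.18, 1.55 and 0.80 on glycerol and at 0.69, 0.67 and 1.28 on glucose. The following were chosen after their values were seen: MRP17 stood at 1.49, 1.62, 0.89 and 0.92 on glycerol, AIM24 at 1.15, 1.24, 1.33 and 1.13, and CBP6, an activator of cytochrome b translation, at 1.79, 0.48, 1.33 and 0.80. MRPL44, the member with the highest log-phase ratio, stayed between −0.07 and 0.20 on glycerol during these 4 h.

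**Figure D2:**
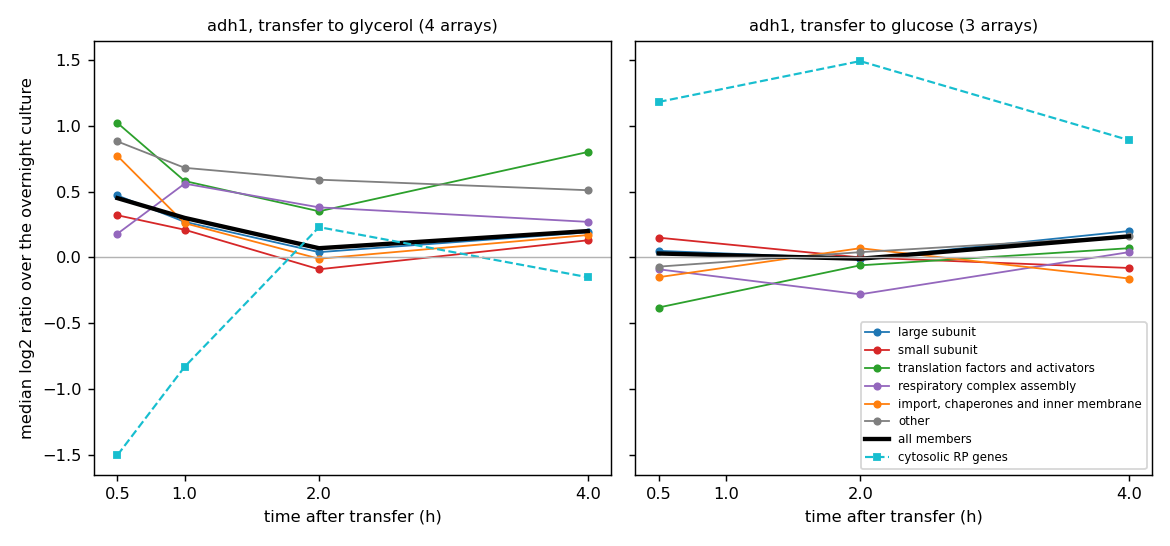
Median log2 ratio against the overnight culture (y axis) by hours after the transfer of *adh1* cells to glycerol and to fresh glucose (x axis), for the members by role, for all 89 members and for the cytosolic ribosomal protein genes, 1 array per time. On glycerol the members' median starts at 0.45, and on glucose it stays between −0.01 and 0.16 while the cytosolic ribosomal protein genes lie at 0.89 or above.

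In the chemostats the members were first compared with their batch reference at steady state, before any stress. Courses share batch references, so the p-values of these tests measure the spread between courses and leave out the variation of the reference itself. Under glucose limitation 5 of 89 rose and 14 fell over the 5 courses, where 13.9% of all genes rose and 14.8% fell, and the median was −0.01 against 0.00 over all genes. Under histidine limitation 43 rose and 1 fell over the 4 courses, where 18.2% of all genes rose and 16.5% fell, and the median was 0.26 against −0.00. Without single glucose-limited courses the former counts were as low as 1 (without H2O2) and 8 (without DTT or NaCl), and without the histidine course 28 rose under histidine limitation. Under histidine limitation 53 of 89 members (59.6%) were above the batch level in all 4 courses, against 26.9% of all genes. The medians of the steady states ran from −0.09 to 0.04 under glucose limitation and from −0.01 to 0.37 under histidine limitation, and arrays taken before the same course differed in median by at most 0.11. The clotrimazole course, with 0.10 and −0.01, was the lowest of the histidine-limited courses and overlapped the glucose-limited range.

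Under histidine limitation 16 of 30 large subunit proteins and 14 of 23 small subunit proteins rose, with 2 of 5 translation factors, 4 of 14 assembly proteins, 2 of 7 import and membrane proteins, 3 of 6 other proteins and 2 of 4 overlapping ORFs. MRPS17, related to bacterial S17, was at 0.77, 0.68, 0.60 and 0.96 in the NaCl, clotrimazole, heat and histidine courses (0.75 ± 0.09 SE, adjusted p = 7.76e-05 by limma). MRPL16 was at 0.72, 0.62, 0.60 and 0.65 (0.65 ± 0.09 SE, adjusted p = 0.000179 by limma). Both were high in every course. MRP13 of the small subunit rose by 0.67, MRPL32 of the large subunit by 0.63, PET123 by 0.45, TUF1 by 0.37, MEF1 by 0.35 and MRP51 by 0.32. The member that fell was PET117, an assembly factor of cytochrome c oxidase, at −0.84, −0.98, −0.47 and −0.95 (−0.81 ± 0.09 SE, adjusted p = 4.33e-05 by limma). HSP10 (0.30), PHB2 (0.12), ATP11 (0.08), COX17 (0.07), NAM9 (0.07), MBA1 (0.06) and MRP7 (−0.05) did not pass the test.

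Under glucose limitation the share of members that fell was close to that of all genes, and the 14 came from several roles: 3 of 30 large subunit, 3 of 23 small subunit, 3 of 14 assembly, 2 of 7 import and membrane and 3 of 6 other proteins. MIC60, the core subunit of the cristae junction complex, was at −0.60, −0.87, −0.33, −0.85 and −0.39 in the DTT, H2O2, NaCl, glucose and heat courses (−0.61 ± 0.10 SE, adjusted p = 0.000957 by limma). COX17 was at −0.55, −0.28, −0.73, −0.30 and −0.69 (−0.51 ± 0.11 SE, adjusted p = 0.00419 by limma). Both were below 0 in all 5 courses. AIM24, the large subunit protein MRPL35, the small subunit protein RSM28 and ATP11 fell by 0.47, 0.41, 0.33 and 0.29. MNP1, MRPL49 and MRPL27 of the large subunit rose by 0.28, 0.28 and 0.25, and YGL069C, which overlaps MNP1 on the other strand, by 0.36. The calls of MNP1, MRPL49 and MRPL27 were lost under 4, 2 and 8 of 14 alternatives, while that of YGL069C held. Of 21 other mitochondrial ribosomal proteins 7 rose and none fell under histidine limitation, with a median of 0.20, and none rose and 1 fell under glucose limitation. None of the 12 mitochondrial tRNA synthetases passed the test under histidine limitation.

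RSM27, a small subunit protein, stood apart from all other members under histidine limitation. It was at 4.13, 3.26, 2.89 and 2.70 in the NaCl, clotrimazole, heat and histidine courses (3.24 ± 0.20 SE, adjusted p = 8.53e-07 by limma), and between −0.33 and 0.42 at the 5 glucose-limited steady states. It was not alone on its chromosome: all 28 measured genes from CRH1 (YGR189C) to CCH1 (YGR217W) were above the batch level in all 4 histidine-limited steady states, with a median of 2.39 and values from 0.84 (TDH3, a glyceraldehyde-3-phosphate dehydrogenase) to 3.24 (RSM27). Under glucose limitation the same genes had a median of 0.06. The stretch includes HIP1, the histidine permease, at 2.26. Just outside it BUB1 and HGH1 on one side were at 0.18 and 0.07. On the other side CRM1 and MRPL9, a large subunit member, were at 0.10 and 0.09, but the next gene, TOS2, was at 1.23, and DIE2, PFK1 and MPC3 further on were at 0.97, 1.21 and 1.42, so that edge was not sharp. These genes were chosen after their values were seen, and whether gene copy number or transcription moved there was not tested.

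The level of RSM27 over the batch reference was lower at the end of some courses. In the histidine-limited DTT course it was at 2.06, 2.46, 1.72, 1.59, 1.52, 0.86 and 0.83 from 0.25 to 28.62 h. After clotrimazole it stayed between 2.71 and 3.43 until 14.18 h and was at 1.97 at 26.45 h and 1.01 at 30.8 h. Genes near it did not all follow. At 30.8 h GPI1 and RPS0A, which flank it, were at 1.08 and 0.30, below their level before clotrimazole. RTA1 and SLI1, which lie beyond RPS0A, were at 3.48 and 2.51, above theirs. In log phase RSM27 rose by 0.55 in *adh1* and by 0.48 in the wild type.

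**Figure D3:**
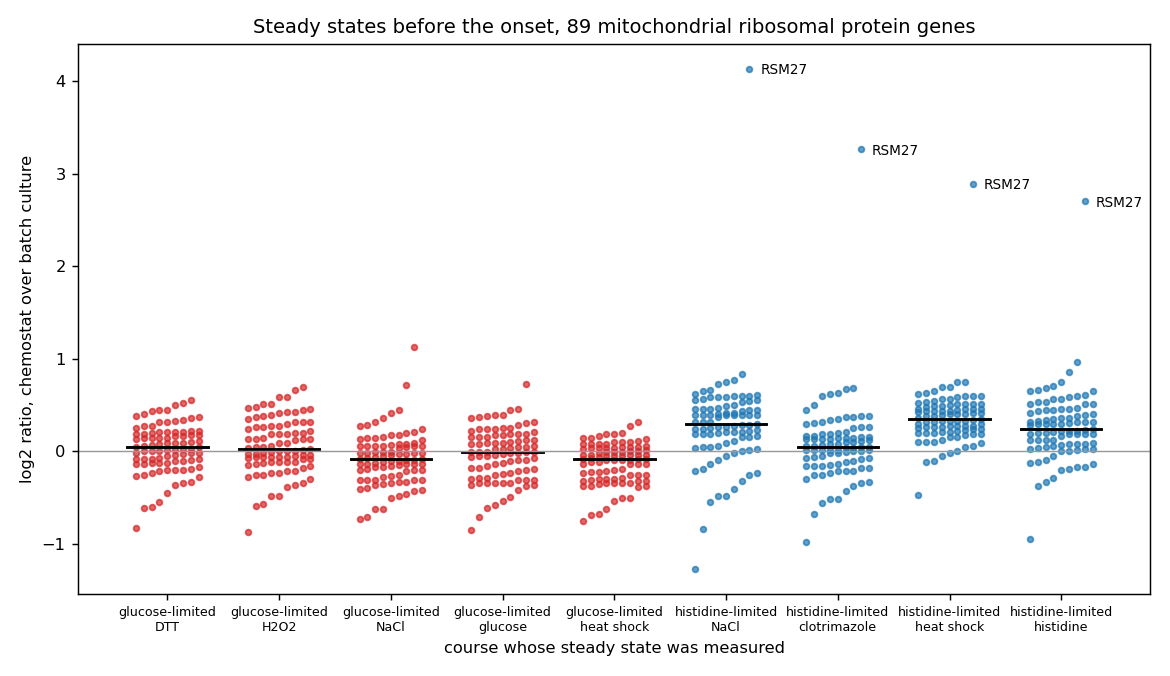
Log2 ratio of each of the 89 members (points) over the batch reference at the steady states of the 9 chemostat courses that had one (x axis), with the median as a black bar. The histidine-limited courses have medians up to 0.36 and one point, RSM27, between 2.70 and 4.13, while the glucose-limited medians lie between −0.09 and 0.04.

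After the onset of stress the members rose in few cases. On the first array after the onset, over 7 stress courses taken as replicates although their stresses differ, 4 of 89 members rose and none fell, where 6.47% of all genes rose and 8.37% fell, and the median was 0.15 against 0.01 over all genes. At an unadjusted p under 0.05, 19 members were higher and 2 lower, where 16.3% of all genes were higher and 17.1% lower. The 4 were PET117 (0.52, adjusted p = 0.0371 by limma), PHB2 (0.48, 0.0494), MRPL38 of the large subunit (0.46, 0.0495) and MZM1, an assembly factor of the cytochrome bc1 complex (0.44, 0.0463). PET117 was at −0.01, 0.28, 0.48 and 0.98 in the glucose-limited DTT, H2O2, NaCl and heat courses and at 0.82, 0.76 and 0.32 in the histidine-limited DTT, NaCl and heat courses. MZM1 was at 0.10, 0.93, 0.54, 0.58, 0.43, 0.38 and 0.07 in the same order, above 0 in all 7. The calls lay close to the threshold and changed with the set of courses. Without the heat course of either limitation, or without the histidine-limited DTT or NaCl course, no member passed. Without the glucose-limited DTT course 10 did. The shares of all genes in these fits are not given here, so the counts do not set the members apart. Over all alternatives PHB2 stayed between 0.40 and 0.56, MRPL38 between 0.32 and 0.52 and MZM1 between 0.32 and 0.50.

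By comparison, 42 of 115 cytosolic ribosomal protein genes and 173 of 227 ribosomal biogenesis genes fell on the first array, and 103 of 190 stress genes rose. None of the other mitochondrial ribosomal proteins, tRNA synthetases or other mitochondrial translation factors passed. On the second array no member passed (limma), nor did any other gene (0.00% in both directions), and the median was −0.12. At an unadjusted p under 0.05, 2 members were higher and 4 lower there, where 11.6% of all genes were higher and 11.3% lower. On the last array again no member and no other gene passed (limma; 0.00%), with a median of 0.01, and at an unadjusted p under 0.05 the 5 members higher and 5 lower were close to the shares of all genes, 6.49% and 5.61%. The first-array change did not pass for any member when glucose limitation was set against histidine limitation (limma; 0.00% of all genes), with a median difference of −0.23. At an unadjusted p under 0.05 no member was higher and 2 were lower, where 3.16% of all genes were higher and 5.41% lower. The 7 courses are different stresses, and the values of single courses, 1 culture each, are therefore given next without a test.

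Doubling the glucose of the glucose-limited chemostat gave the lowest median of any course. At 0.25 h the median over members was −0.72, only 8 of 89 were above 0 and 28 were at least 2-fold lower, where 9.85% of all genes were. Import and membrane proteins had the lowest median, −1.43, with 4 of 7 at least 2-fold lower, and assembly proteins had a median of −1.36 with 9 of 14. In the large subunit 6 of 30 and in the small subunit 5 of 23 were that low, with medians of −0.74 and −0.56. COA4, an assembly factor of cytochrome c oxidase, was at −2.78, PET117 at −2.08 and HSP10 at −1.64. The oxidative phosphorylation genes had a median of −1.49 on this array, and the ribosomal biogenesis genes 1.25.

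The median was not as low again in this course. At 1.08, 1.58, 3.08, 5.08, 8.08 and 9.8 h the median was 0.13, 0.42, 0.33, 0.30, −0.37 and −0.14. COX17 was at −2.07, −0.01, 0.92, 0.90, 0.83, −0.35 and 0.37 over the 7 arrays. It was far below the steady state on the first array, above it from 1.58 to 5.08 h and below it again at 8.08 h. Extra histidine under histidine limitation left the median between 0.05 and 0.17 throughout.

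Under DTT, which reduces disulfide bonds, the highest median was found under histidine limitation at 1 h and the lowest under glucose limitation at 4.95 h. In the histidine-limited chemostat the median was 0.47 at 0.25 h and 0.73 at 1 h, when 83 of 89 members were above 0 and 23 were at least 2-fold higher, where 10.7% of all genes were. The assembly proteins had a median of 0.96 on that array and 6 of 14 were at least 2-fold higher, while the cytosolic ribosomal protein genes had a median of −2.39. From 3.1 h on the median lay between −0.15 and 0.08. In the glucose-limited chemostat the median was 0.07 at 0.33 h, −0.36 at 2.22 h and −0.58 at 4.95 h, when 12 members were at least 2-fold lower, where 5.97% of all genes were. With 1 course per limitation this difference was not tested, and the histidine-limited course lacks a steady state of its own. Against the batch reference alone its medians at 0.25 and 1 h were 0.74 and 0.93.

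After NaCl and heat the median stayed close to 0 under histidine limitation. Under glucose limitation it went below and then above 0 after NaCl, and after heat it was above 0 first, then below and later above. After 0.4 M NaCl the median was −0.38, −0.52, 0.09, 0.42, 0.41, 0.49 and 0.06 from 0.25 to 8.93 h. At 0.25 h 13 members were at least 2-fold lower and 4 at least 2-fold higher, where 13.6% and 10.1% of all genes were, so the lower share was near that of all genes. At 6.58 h 8 were at least 2-fold higher, where 2.36% of all genes were. After 0.31 M NaCl in the histidine-limited chemostat it lay between −0.03 and 0.15. In the glucose-limited heat course the median was 0.26 at 0.25 h, −0.39 at 1.58 h and 0.43 at 9.63 h, after the return to 30°C, when 10 members were at least 2-fold higher, where 2.87% of all genes were. In the histidine-limited heat course it lay between −0.20 and 0.07. H2O2 gave 0.32 at 0.25 h and −0.13 at 1.2 h, when the cytosolic ribosomal protein genes had a median of −1.78, and clotrimazole gave −0.16 to 0.19. The doses and temperatures differ between the limitations, so the values stand side by side only.

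**Figure D4:**
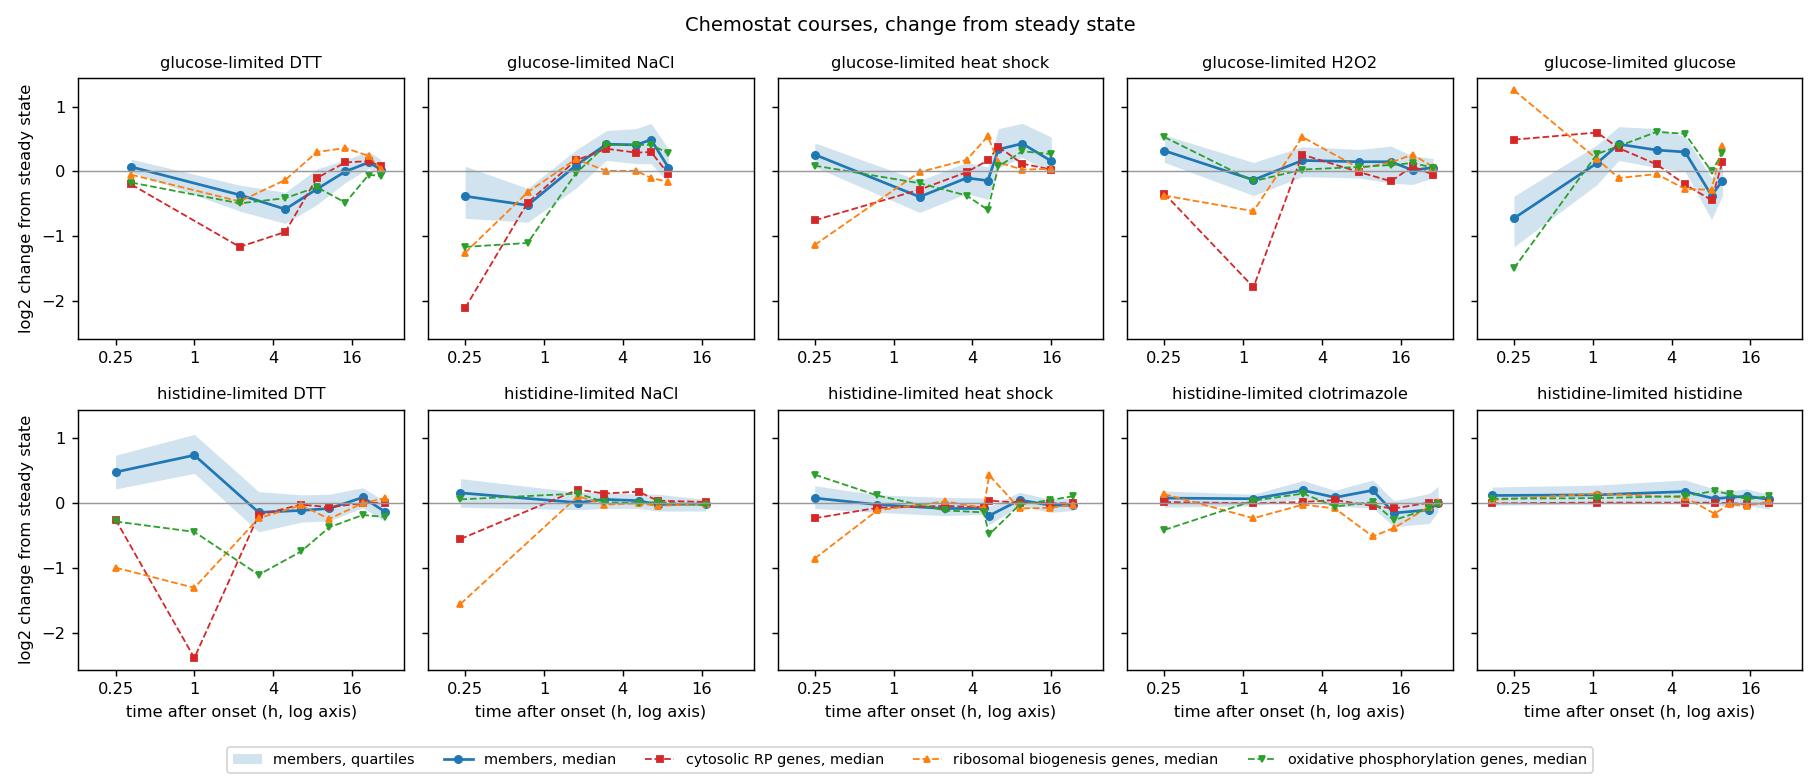
Median log2 change from steady state (y axis) by hours after the onset on a log axis (x axis) in the 10 chemostat courses, for the 89 members with their quartiles as a band, and for the cytosolic ribosomal protein, ribosomal biogenesis and oxidative phosphorylation genes. The members' median is lowest 0.25 h after the addition of glucose (−0.72) and highest 1 h after DTT under histidine limitation (0.73).

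Large changes of single members were rare. Of the 89 members 9 (10.1%) were at least 4-fold from the reference level on any array, against 1514 of 6132 genes (24.7%), and several did so in 1 course. The members described next were chosen for these values. OMS1, an inner membrane protein, was at 3.13, 1.71, 0.97, 0.93 and −0.07 over the first 5 arrays of the histidine-limited heat course and at 1.89, 2.49, 2.21, 1.41, 0.66, −0.62 and −0.44 in the histidine-limited DTT course. In the glucose-limited heat course it lay between −0.16 and 0.30. CYT2 was at 2.60 and 2.14 at 0.25 and 1.2 h after H2O2 and at 0.60 at 2.83 h.

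MRP13 was at −4.93, −2.12, −2.32, −0.44, −0.48, −0.99 and −1.56 after NaCl under glucose limitation. Its steady-state level there was 1.12, above the −0.58 to 0.08 of the other 4 glucose-limited steady states, so these changes start from a high value. Over the batch reference it was at −3.80 on the first array and between −1.20 and 0.68 on the others, below 0 on the first 3 and on the last. COX23, an assembly factor of cytochrome c oxidase, was at 2.57 on the first array of this course and at 0.48 on the second. HSP10 was at 1.98, 1.28, 1.41 and 0.17 over the first 4 arrays of the glucose-limited heat course and at 0.95 and 0.68 over the first 2 of the histidine-limited heat course. Its mean on the first array over 7 stress courses was 0.64, which did not pass the test (adjusted p = 0.0922 by limma).

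**Figure D5:**
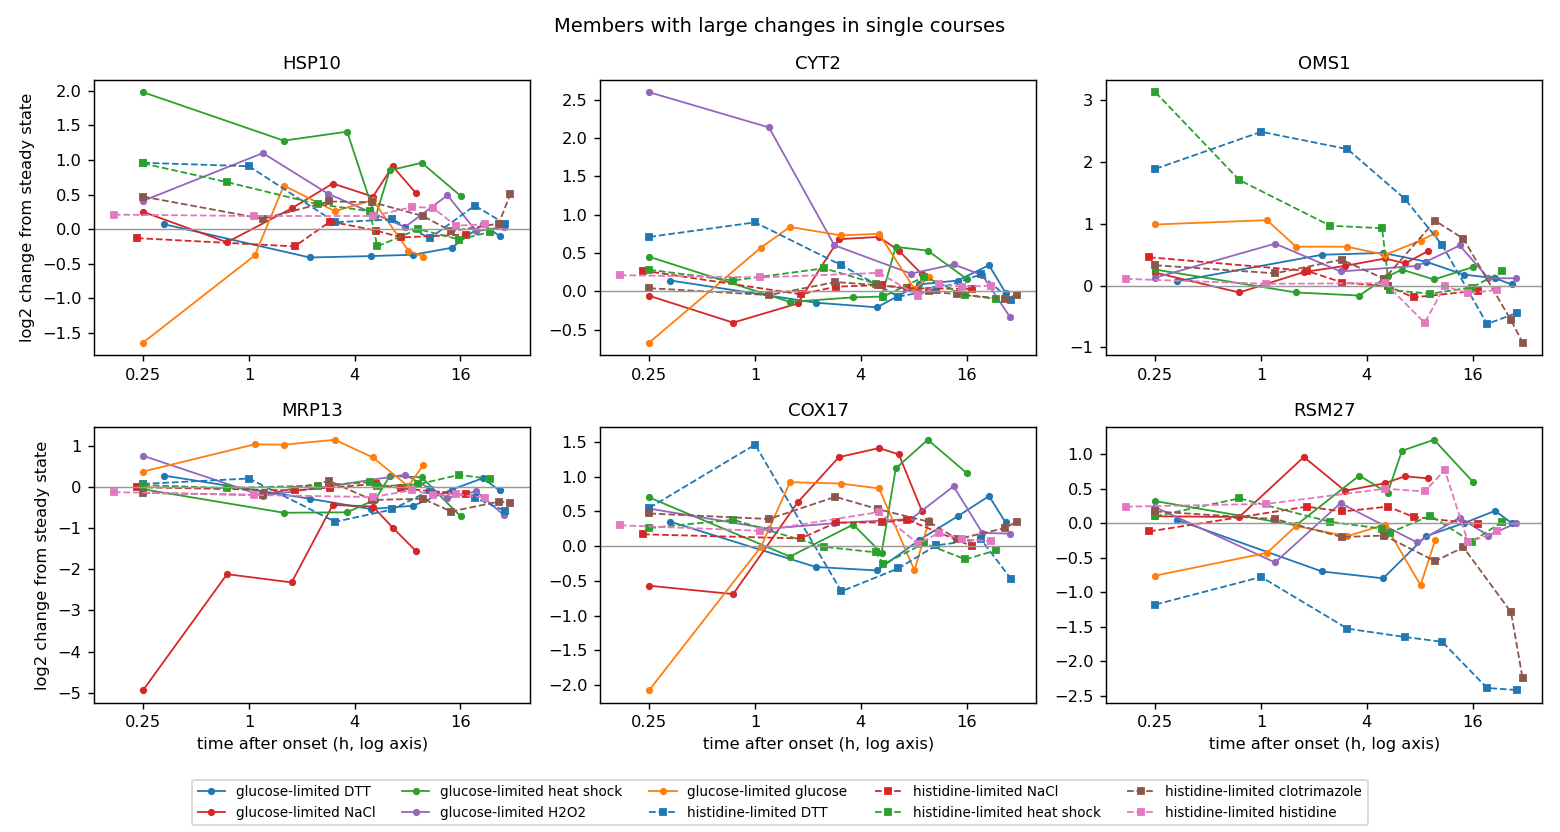
Log2 change from steady state (y axis) by hours after the onset on a log axis (x axis) for HSP10, CYT2, OMS1, MRP13, COX17 and RSM27, with a line for each of the 10 chemostat courses. Each gene leaves the range of −2 to 2 or nears its edge in 1 or a few courses, as OMS1 does at 3.13 in the histidine-limited heat course and MRP13 at −4.93 in the glucose-limited NaCl course.

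Over the 71 chemostat arrays after an onset the members varied together, which is also the property by which the module was chosen. The correlation of a member with the mean of the others had a median of 0.670, from −0.395 to 0.908, where the 6042 other genes had a median of −0.019 (Pearson's r over 71 arrays, which share courses, steady states and batch references; genes and arrays are not independent replicates). It was 0.734 over the glucose-limited arrays and 0.638 over the histidine-limited arrays. The large subunit had a median of 0.726 and the small subunit 0.610, and the means of the subunits correlated at 0.948. The other mitochondrial ribosomal proteins, which are not members, had a median of 0.643, the mitochondrial tRNA synthetases 0.251 and the other mitochondrial translation factors 0.240.

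The members most like the rest were AIM36, a mitochondrial protein of unknown function (0.908), MRPL6 of the large subunit (0.873) and COX17 (0.869). The least like were MRPL7 (−0.395), MRPS28 (−0.115) and the overlapping ORF YGL069C (0.007). Among all other genes the most alike were MRPL8, a large subunit protein (0.849), RQC1, of the cytosolic ribosome quality control complex (0.826), and FYV5 (0.806). The mean of the members correlated at 0.665 with the mean of the oxidative phosphorylation genes, at 0.098 with that of the cytosolic ribosomal protein genes and at −0.293 with that of the ribosomal biogenesis genes. The 4 overlapping ORFs correlated with the gene on the other strand at 0.385 (YGL069C and MNP1), 0.145 (YGR219W and MRPL9), 0.452 (YKL169C and MRPL38) and 0.619 (YPR099C and MRPL51) over 90 to 94 arrays. Unlike the values above, these used the deposited ratios over the arrays of all experiments, which differ in their reference. YGR219W and YKL169C had 18 and 10 exact zeros among their chemostat values.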

How the data were processed

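The authors hybridised arrays of PCR-amplified ORFs and deposited normalized log2 ratios of Cy5 over Cy3, with the sample in Cy5 and no dye swaps. Image analysis and background settings were not given in the sources used here, arrays hold no read depth, and exact zeros (44 of the members' chemostat values) were kept as deposited. Chemostat values had the steady state of their course subtracted. Fits were made in R 4.3.3 (limma 3.58.1, moderated over all genes), log-phase arrays in one fit by strain and chemostat courses in fits by time or limitation. The threshold was a Benjamini-Hochberg adjusted p of 0.05. The fits were run on simulated data with independent noise and changes larger than most of those reported here. Such data do not show how well smaller changes are found, and the difference between the strains was not simulated. Named genes are 12 chosen members, the 5 largest called rises and falls with 1 sign on every array or course, and the 3 most and least correlated members. Members, roles and lists were chosen with earlier results of these data known. Times came from the sample titles, because source labels of the glucose-limited heat course repeat those of another course. Alternatives were another centring, zeros as missing, the batch reference, other steady states, a replicate block, leaving out each array or course and, added after the data were seen, other sets of arrays or members for the correlation. Of 89 members 86 matched the reference annotation. Sequences and motifs were not analysed here.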

Additional observations from a re-analysis of the deposited data

Results flagged for a closer look

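Single values were compared within groups of 4 to 10 arrays or courses, and 9 of 80 such groups had an array far from the others. The members vary together on the same arrays, and the stress courses differ in their stress. The count therefore cannot be set against a rate given by chance. On the first array of the glucose-limited NaCl course, 5 of the members in these groups lay far below their other 6 courses: MBA1 at −1.45 (nearest other −0.07), TUF1 at −1.08 (0.15), MEF1 at −0.88 (−0.01), ATP11 at −0.77 (0.13) and COX17 at −0.57 (0.17). All 5 came from the same array. The groups did not cover all members. On that array 13 of the 89 were at least 2-fold lower, where 13.6% of all genes were. The lowest were MRP13 (−4.93), MAM33 (−1.80) and AIM24 (−1.47). MRP51 was at 0.42 on the first array of the glucose-limited heat course (nearest other 0.08), and PHB2 at −0.61 on the last array of the H2O2 course (nearest other −0.13). The median over members of 0.73 on the second array of the histidine-limited DTT course stood apart from the next highest, 0.00. PET123 was at −0.42 at the steady state of the glucose course, where the nearest of the other glucose-limited steady states was −0.02.

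The response to glycerol differed between *adh1* and the wild type for 13 named members by limma's test of the difference. MNP1 (1.23), MIA40 (1.08), MRPL22 (0.93), MIC19 (0.89), NAM9 (0.87), ATP11 (0.80), PET123 (0.76), MEF1 (0.65), TUF1 (0.54) and PHB2 (0.41) were higher in *adh1*. RSM24 (−0.80), MRPS28 (−0.72) and CYT2 (−0.58) were lower. MNP1, MIA40, MRPL22, MIC19, RSM24, MRPS28 and CYT2 were named for the size of their call in this same test. The count of 13 therefore adds nothing to the counts over all tested members given above. Of all genes 13.8% were called higher and 11.8% lower.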

How the results depend on the processing

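Among the alternatives run no called named member reversed: 1562 values kept their side of the threshold, 97 lost it and 7 gained it. In the wild type TUF1 and MBA1 lost it under 6 and 7 of 11 alternatives. For the strain difference PHB2 lost it under 6 and MEF1 and TUF1 under 5 of 10. The counts that follow, and those above for fits without an array or course, lack the share of all genes in the same fit. They show how the calls depend on the settings and cannot set the members apart from other genes. With the replicate block 7 members fell in the wild type and 14 were higher in *adh1* than in the wild type (*adh1* alone 45 higher and 4 lower, wild type 16 higher, difference 3 lower); the numbers do not pair the arrays, whose deviations correlated at 0.054 and −0.002. With the strain fitted alone 7 fell in the wild type, and the mean rather than the median over members gave 0.11 there. Against the batch reference 1 member rose on the first array, 12 on the last, whose median was 0.14, and 2 were lower in glucose than in histidine limitation; against the mean steady state of the limitation 8 rose on the first. Glucose-limited steady states gave 3 rises with the array closest to the onset and with the limitation fitted alone, and histidine-limited ones 2 falls with the latter. Leaving out each array or course in turn gave 38 to 51 rises and 2 to 6 falls in *adh1*, 14 to 25 and 8 to 15 in the wild type, 12 to 25 and 1 to 4 for the difference, 0 to 10 and 0 to 0 on the first array, 0 to 0 in both directions on the second and last arrays and between limitations, 1 to 5 and 8 to 13 at glucose-limited and 28 to 44 and 1 to 4 at histidine-limited steady states, with 28 without the histidine course. Ratios against the batch reference turned the medians of histidine-limited DTT at 3.1, 6.55 and 28.62 h to 0.08, 0.17 and 0.08 and of histidine-limited heat at 5.38 h to 0.20. The cause of these shifts was not tested. With 2 to 7 arrays or courses per test, small changes could not be resolved.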
